A study of Mus musculus with 10 samples.

Results

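Genes of cholesterol synthesis and of its sterol-sensing control were compared between hearts of male mice born to dams that received anti-Müllerian hormone (AMH) in pregnancy and hearts of male controls whose dams received vehicle (phosphate-buffered saline). The described set holds 8 genes, taken by their symbols: the transcription factor genes Srebf1 and Srebf2, the escort gene Scap, the retention genes Insig1 and Insig2, and the synthesis enzyme genes Hmgcs1, Sqle and Fdft1. All 8 were found by Ensembl identifier among the 55335 genes of the deposited table. The groups were 5 control and 5 prenatally AMH-exposed (PAMH) samples, all labelled as wild type heart, and neither strain, age, dose nor litter is given in the labels. Values are FPKM, that is, read fragments per kilobase of transcript, scaled to the mapped fragments of the sample. Of the 8 genes 7 averaged at least 1 FPKM over the 10 samples and were tested among 9439 such genes; Sqle was below this filter.

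Sterol regulatory element binding proteins (SREBPs) are transcription factors made as precursors in the membrane of the endoplasmic reticulum. When sterols are scarce, Scap carries them to the Golgi apparatus, where proteases release the active factor, which then switches on genes of cholesterol synthesis and uptake. When sterols are plentiful, the Insig proteins hold the complex of Scap and SREBP in the endoplasmic reticulum. Insig1 is itself a target of SREBPs. The adult heart makes little cholesterol compared with the liver.

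Among these genes Insig1 was lower in PAMH hearts, and it was the only 1 of the 7 tested to pass the threshold (limma, adjusted p under 0.05). Its paralogue Insig2 had a positive difference that did not pass. Hmgcs1 and Fdft1 did not pass, nor did Scap, Srebf1 or Srebf2. Over all tested genes 6.19% passed, 4.95% higher and 1.24% lower, so 1 of 7 is near the background share. With each sample scaled by the median ratio in place of the deposited scale, 2.31% of genes were higher and 2.25% lower, and Insig1 was again the only gene of the 7 to pass.

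The start regions of Insig1 and Insig2 are shown because these paralogues had differences of opposite sign. The sequences are those of RefSeq on build GRCm38.p6, from 250 bases before to 50 bases after each annotated start, on the gene's strand, with the E-box CACGTG in capitals. RefSeq gives 1 start for Insig1 (plus strand) and 3 for Insig2 (minus strand), and FPKM per gene do not say which start was used.
Insig1, chr5:28071162-28071461: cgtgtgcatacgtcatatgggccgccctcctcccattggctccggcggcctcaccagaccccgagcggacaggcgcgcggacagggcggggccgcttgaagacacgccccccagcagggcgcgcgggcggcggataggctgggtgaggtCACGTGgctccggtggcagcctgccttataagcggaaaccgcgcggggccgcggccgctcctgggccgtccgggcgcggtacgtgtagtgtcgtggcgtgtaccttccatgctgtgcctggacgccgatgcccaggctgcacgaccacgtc
Insig2, chr1:121327629-121327928: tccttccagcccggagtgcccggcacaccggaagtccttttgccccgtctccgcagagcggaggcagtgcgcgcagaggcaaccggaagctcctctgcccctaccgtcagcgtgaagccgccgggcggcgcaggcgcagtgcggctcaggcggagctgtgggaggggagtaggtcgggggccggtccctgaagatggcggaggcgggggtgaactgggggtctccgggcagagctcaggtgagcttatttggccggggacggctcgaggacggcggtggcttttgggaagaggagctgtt
Insig2, chr1:121327975-121328274: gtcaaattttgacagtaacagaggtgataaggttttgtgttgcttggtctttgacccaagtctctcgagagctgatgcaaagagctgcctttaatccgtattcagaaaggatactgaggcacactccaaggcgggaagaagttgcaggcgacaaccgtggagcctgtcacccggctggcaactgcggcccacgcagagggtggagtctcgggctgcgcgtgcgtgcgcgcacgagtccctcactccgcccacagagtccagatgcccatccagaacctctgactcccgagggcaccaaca
Insig2, chr1:121332540-121332839: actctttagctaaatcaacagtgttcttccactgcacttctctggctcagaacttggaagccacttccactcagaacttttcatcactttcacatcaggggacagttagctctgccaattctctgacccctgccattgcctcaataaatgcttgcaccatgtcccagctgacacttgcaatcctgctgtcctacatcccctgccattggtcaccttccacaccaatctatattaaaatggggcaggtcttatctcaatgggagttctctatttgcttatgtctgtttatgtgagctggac
The E-box of Insig1 began at position -101 relative to its start. An E-box was held by 7.15% of all 32851 RefSeq promoters, among these genes by the windows of Insig1 and Scap. The 3 windows of Insig2 held none.

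The SREBP core, searched as TCACNCCA on both strands and without regard to overlap with other motifs, was found in the windows of Hmgcs1 and Srebf2. This string was in 4.36% of all promoters, and in none of the windows of Insig1, Insig2, Scap or Srebf1. Sites that differ from it in any fixed letter were not searched for, in these windows or in the others. Both sites are shown as 30 bases on the plus strand, with the match in capitals.
Hmgcs1, chr13:119690203-119690232: acgtcaccgtcTCACCCCActtcccaggtc
Srebf2, chr15:82147096-82147125: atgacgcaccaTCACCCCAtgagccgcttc
The match began at position -137 relative to the start in Hmgcs1 and at -162 in Srebf2. A match in such a window is a description of the letters and not evidence of binding. Its absence says nothing of binding elsewhere, or of sites with other letters in the same window. The CCAAT box of the factor NF-Y was present in 1 of the 3 Insig2 windows, in the windows of Insig1, Hmgcs1 and Srebf2 and in 2 of the 3 of Srebf1 (37.4% of all promoters). The Sp1 box GGGCGG occurred at least once in 9 of the 11 windows (35.7% of all promoters). RefSeq promoters were matched for 6 of the 8 genes.

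The heart identity of the samples was checked first. The 5 cardiomyocyte markers summed to between 5683 and 10293 FPKM per sample, whereas the hepatocyte markers summed to at most 0.658 FPKM, with Serpina1a and Fgb listed at 0 in every sample. Adipocyte markers reached at most 1.25 FPKM (PAMH replicate 3), with Lep at 0 throughout. The number of genes with any signal was lowest in PAMH replicate 4, at 16113, followed by PAMH replicate 5 at 18037, and reached 21097. Mitochondrially encoded genes took 55.3 to 56.8% of the FPKM sum in controls and 51.5 to 56.6% in PAMH samples, of which all but replicate 3 were below every control. The part of this share in the results was not tested. PAMH replicate 4 also had the highest sum of erythroid markers, 863 FPKM against 97.3 to 437 FPKM elsewhere. PAMH replicate 3 lay at 0.52 (Insig1) and 0.47 (Insig2) of the way from the control mean to the mean of the other PAMH samples. For Insig1 PAMH replicate 5, at 2.75 FPKM, was close to PAMH replicate 3, at 2.79 FPKM. On the same scale PAMH replicate 3 was at -0.24 for Srebf1, -0.16 for Scap, -0.27 for Fdft1 and -1.20 for Sqle. It was at 0.08 for Srebf2 and at 4.31 for Hmgcs1. Results that change without either sample are given both ways.

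Insig1 (ENSMUSG00000045294; chromosome 5, 28071363 to 28078662, plus strand) encodes a sterol-sensing protein that retains Scap in the endoplasmic reticulum. In control hearts it was at 3.81, 3.65, 3.77, 3.56 and 3.34 FPKM in replicates 1 to 5. In PAMH hearts it was at 2.07, 2.35, 2.79, 1.61 and 2.75 FPKM. All 5 PAMH samples were below all 5 controls, with PAMH replicate 4 lowest. Groups did not overlap for 8.44% of all tested genes, with all PAMH samples below for 1.71% and above for 6.74%. The mean fell from 3.63 ± 0.188 to 2.31 ± 0.494 FPKM (SD, n = 5 each), a ratio of 0.638. On the log2(FPKM + 1) scale the difference was -0.49 (SE 0.10, 95% interval -0.71 to -0.27, limma adjusted p = 0.0156), where the median of all tested genes was 0.07. Without PAMH replicate 4 the difference was -0.41 (limma adjusted p = 0.0122), and without PAMH replicate 3 it was -0.55 (limma adjusted p = 0.00807). The call was lost when no filter on low values was used (limma adjusted p = 0.0576), with the difference the same.

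Some markers of other cell types moved with the groups. Of the 4 smooth muscle markers Acta2, the smooth muscle actin gene, was at 25.4 to 41.4 FPKM in control and 50.2 to 100.8 FPKM in PAMH hearts (limma adjusted p = 0.00223). Myh11 and Tagln had log2 differences of 0.07 and 0.0040 (limma adjusted p = 0.800 and 0.992), and Cnn1 was below the filter. The sum of the list, 32.4 to 55.8 against 63.1 to 108.5 FPKM, thus separated the groups through Acta2. The 5 mesothelial markers summed to 0.404 to 1.16 FPKM in control and 2.46 to 6.67 FPKM in PAMH hearts, also without overlap. Of these only Upk3b reached the filter (log2 difference 1.20, limma adjusted p = 0.00190). Below the filter and not tested, Msln, Upk1b and Krt19 did not overlap between groups. Wt1, also below it, did (0.193 to 0.327 against 0.135 to 0.676 FPKM). The endothelial sum was 59.3 to 70.9 FPKM in control and 48.7 to 62.3 FPKM in PAMH hearts. The fibroblast sum was 90.6 to 100.2 and 75.7 to 98.1 FPKM, and the macrophage sum 45.3 to 53.4 and 52.5 to 65.2 FPKM. C1qa made up most of the macrophage sum (log2 difference 0.21, limma adjusted p = 0.142). Only Cd68 of that list passed (0.46, limma adjusted p = 0.0187), while Adgre1 and Csf1r were at -0.06 and -0.04. Of the endothelial list only Cldn5 passed (-0.88, limma adjusted p = 0.00200). Pecam1, Cdh5 and Kdr were at -0.24, -0.18 and -0.18, and Emcn at 0.17. Of the 5 Schwann cell markers only Mal reached the filter, and it passed (log2 difference 0.38, limma adjusted p = 0.0409). Mal was at 4.47 to 5.72 FPKM in control and 5.34 to 7.76 FPKM in PAMH hearts. The cardiomyocyte sum was 6381 to 8082 FPKM in control and 5683 to 10293 FPKM in PAMH hearts, and no marker of that list passed. The sums thus do not stand for every marker. The part of these cell types in the fall of Insig1 was not tested. In bulk tissue fewer cells of a type and less RNA per cell cannot be told apart.

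Insig2 (chromosome 1, 121304353 to 121332589, minus strand) encodes the second retention protein, which shares the sterol-dependent binding of Scap. It was at 8.26, 7.25, 8.88, 8.005 and 8.12 FPKM in control replicates 1 to 5 and at 9.62, 9.48, 8.86, 9.83 and 10.34 FPKM in the PAMH replicates. Only PAMH replicate 3 was within the control range, just under control replicate 3. The means were 8.10 ± 0.586 and 9.63 ± 0.540 FPKM (SD, n = 5 each). The log2 difference of 0.22 (SE 0.07, 95% interval 0.07 to 0.38) did not pass (limma adjusted p = 0.0764). Insig2 passed without PAMH replicate 3, with a difference of 0.25 (limma adjusted p = 0.0410), and under median ratio scaling the difference was 0.14 (limma adjusted p = 0.297).

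The paralogues were also compared within each sample. The ratio of Insig1 to Insig2 FPKM was 0.462, 0.503, 0.424, 0.445 and 0.411 in control replicates 1 to 5. In the PAMH replicates it was 0.215, 0.248, 0.315, 0.164 and 0.265. Every PAMH sample was below every control. The mean ratio was 0.449 ± 0.0359 over the controls and 0.242 ± 0.0566 over the PAMH samples (SD, n = 5 each). The mean log2 ratio of FPKM + 1 differed by -0.72 (exact 2-sided permutation test, p = 0.00794, the smallest that 5 against 5 samples allow; adjusted p = 0.0159 over 2 ratios). With no pseudocount, where a scaling factor of the sample cancels, the difference was -0.92 (exact permutation, adjusted p = 0.0159); this setting was chosen after seeing the data. Both tests use the same Insig1 values, which alone separated the groups, so they are not independent of the Insig1 call. Insig1 was the less abundant of the paralogues in both groups, and the gap was wider in PAMH hearts.

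**Figure D1:**
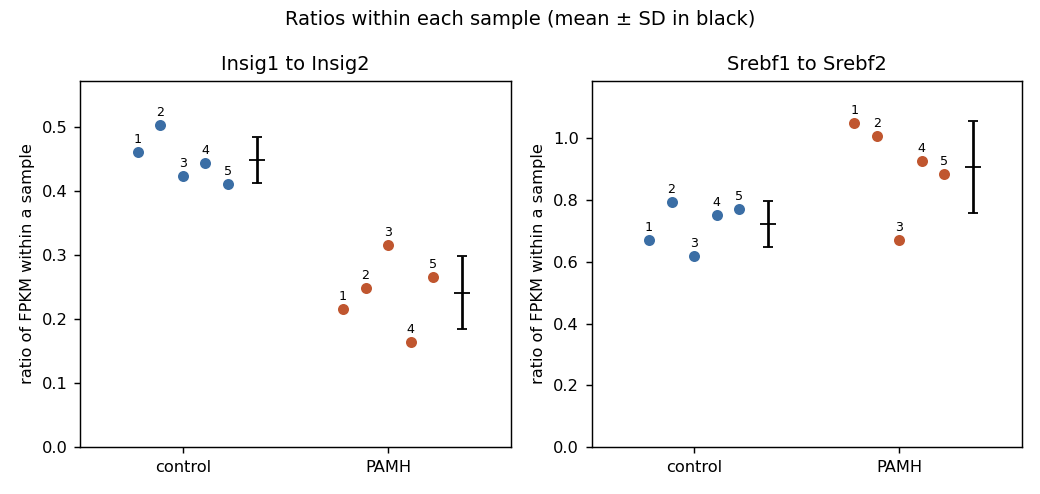
Ratio of FPKM of Insig1 to Insig2 (left) and of Srebf1 to Srebf2 (right) in each of the 5 control and 5 PAMH samples, on a linear axis from 0, with replicate numbers above the points and mean ± SD in black. The Insig ratio of all PAMH samples (0.164 to 0.315) lies below that of all controls (0.411 to 0.503), while PAMH replicate 3 (0.670) lies within the controls for the Srebf ratio.

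The transcription factor genes were close to each other in level. Srebf1 (chromosome 11, 60199089 to 60222581, minus strand) encodes SREBP1, whose forms favour genes of fatty acid synthesis. It was at 1.59, 1.89, 1.51, 1.86 and 1.89 FPKM in control replicates 1 to 5 and at 2.41, 2.60, 1.62, 2.47 and 1.82 FPKM in the PAMH replicates. PAMH replicates 1, 2 and 4 were above all controls and PAMH replicates 3 and 5 within their range. The means were 1.75 ± 0.180 and 2.18 ± 0.434 FPKM (SD, n = 5 each; log2 difference 0.20, SE 0.10, 95% interval -0.01 to 0.42, limma adjusted p = 0.236). Srebf1 has alternative promoters that give different protein forms, and values per gene do not separate these.

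Srebf2 (chromosome 15, 82147181 to 82205379, plus strand) encodes SREBP2, the main activator of cholesterol synthesis and uptake genes. It was at 2.38, 2.37, 2.44, 2.47 and 2.45 FPKM in control replicates 1 to 5 and at 2.29, 2.58, 2.42, 2.66 and 2.06 FPKM in the PAMH replicates. The PAMH samples lay on both sides of the narrow control range. The means were 2.42 ± 0.0431 and 2.40 ± 0.240 FPKM (SD, n = 5 each), and the log2 difference of -0.01 (SE 0.07, limma adjusted p = 0.942) had a 95% interval of -0.16 to 0.14. Its sign turned with all samples set to an equal FPKM sum (0.02).

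The ratio of Srebf1 to Srebf2 averaged 0.722 ± 0.0739 over the controls and 0.908 ± 0.149 over the PAMH samples (SD, n = 5 each). Control samples ranged from 0.619 to 0.794. PAMH replicates 1, 2, 4 and 5 were above that range, at 1.051, 1.008, 0.925 and 0.885, and PAMH replicate 3 was within it at 0.670. The mean log2 ratio differed by 0.21 (exact 2-sided permutation test, p = 0.0476; adjusted p = 0.0476 over 2 ratios). The call was lost with a pseudocount of 0.1 or none (exact permutation, adjusted p = 0.0556 in both) and on leaving out any sample other than PAMH replicate 3 (exact permutation, adjusted p up to 0.103).

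Scap (chromosome 9, 110333288 to 110384950, plus strand) encodes the sterol-sensing escort of the SREBPs. It was at 2.79, 3.395, 2.98, 2.84 and 2.71 FPKM in control replicates 1 to 5 and at 3.05, 2.87, 2.86, 4.78 and 3.30 FPKM in the PAMH replicates. Apart from PAMH replicate 4 all PAMH samples were within the control range. The means were 2.94 ± 0.271 and 3.37 ± 0.808 FPKM (SD, n = 5 each; log2 difference 0.13, SE 0.11, 95% interval -0.11 to 0.37, limma adjusted p = 0.488). Without PAMH replicate 4 the PAMH mean was 3.02 ± 0.208 FPKM (SD, n = 4) and the log2 difference 0.03 (limma adjusted p = 0.844).

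**Figure D2:**
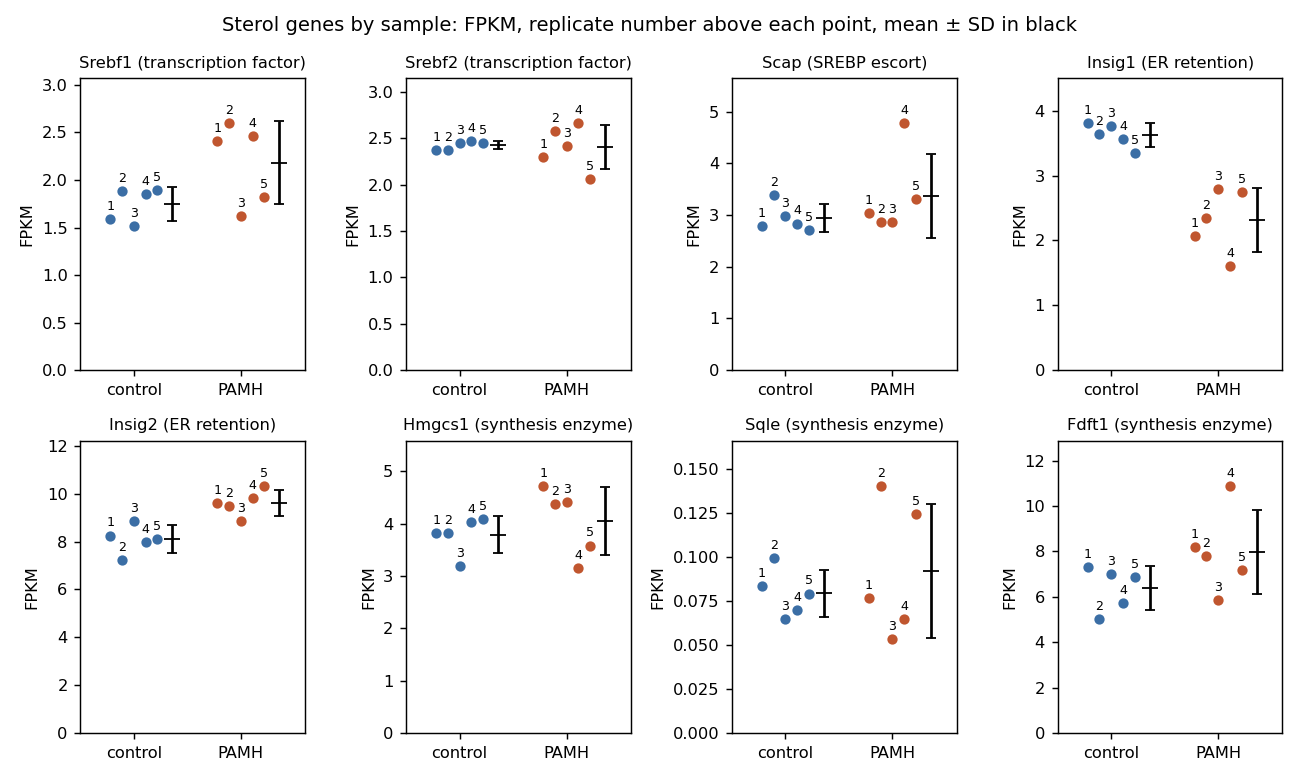
FPKM of the 8 genes in each of 5 control (blue) and 5 PAMH (orange) samples, on linear axes from 0 that differ between panels, with replicate numbers above the points and mean ± SD in black. The groups do not overlap for Insig1, where PAMH samples lie at 1.61 to 2.79 FPKM and controls at 3.34 to 3.81 FPKM, and overlap for the other 7 genes.

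Of the enzymes, Hmgcs1 (chromosome 13, 119690379 to 119708260, plus strand) encodes the cytosolic synthase that makes HMG-CoA, an early intermediate of the pathway. It was at 3.82, 3.83, 3.19, 4.03 and 4.08 FPKM in control replicates 1 to 5 and at 4.73, 4.37, 4.41, 3.15 and 3.58 FPKM in the PAMH replicates. PAMH replicates 1 to 3 were above all controls and PAMH replicate 4 below all. The means were 3.79 ± 0.358 and 4.05 ± 0.654 FPKM (SD, n = 5 each; log2 difference 0.07, SE 0.10, 95% interval -0.14 to 0.28, limma adjusted p = 0.707). Without PAMH replicates 4 and 5 the difference was 0.20 (limma adjusted p = 0.182), and with median ratio scaling it was -0.0089.

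Fdft1 (chromosome 14, 63145150 to 63179578, minus strand) encodes squalene synthase, the first enzyme of the branch that leads only to sterols. It was at 7.30, 5.02, 7.01, 5.72 and 6.86 FPKM in control replicates 1 to 5 and at 8.20, 7.80, 5.84, 10.90 and 7.17 FPKM in the PAMH replicates. PAMH replicates 1, 2 and 4 were above all controls. The means were 6.38 ± 0.971 and 7.98 ± 1.86 FPKM (SD, n = 5 each; log2 difference 0.27, SE 0.14, 95% interval -0.03 to 0.57, limma adjusted p = 0.260). Without PAMH replicate 4 the difference was 0.16 (limma adjusted p = 0.417). The exons of Fdft1 overlap those of the cathepsin gene Ctsb on the opposite strand over 774 bases. Ctsb was at 49.2 ± 4.66 and 51.8 ± 7.81 FPKM (SD, n = 5 each), with 61.0 FPKM in PAMH replicate 4, its highest. The strand setting is not given, so reads of the overlap cannot be told apart and the values of Fdft1 are uncertain.

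Sqle (chromosome 15, 59315077 to 59331192, plus strand) encodes squalene epoxidase, which acts directly after squalene synthase. It was listed at 0.0648 to 0.0992 FPKM in control hearts (mean 0.0792 ± 0.0134, SD, n = 5). In PAMH hearts it was listed at 0.0534 to 0.140 FPKM (mean 0.0920 ± 0.0383, SD, n = 5). These ranges overlap, and the PAMH samples lie on both sides of the controls. Sqle was not tested with the filter, and with no filter its log2 difference was 0.02 (limma adjusted p = 0.781).

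FPKM are per length, so levels can be set in order. In control hearts Insig2 was highest, followed by Fdft1, Hmgcs1, Insig1, Scap, Srebf2, Srebf1 and Sqle. The ranges of Insig2 and Fdft1 overlapped, as did those of Hmgcs1 and Insig1 and those of Insig1 and Scap, while the other neighbours did not. In PAMH hearts Insig1 stood sixth, after Scap and Srebf2, and its range overlapped those of both SREBP genes. The mean level of Insig2 was 8.10 FPKM in control hearts where that of Sqle was 0.0792 FPKM.

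The spread between samples was wider in PAMH hearts for most of these genes. The coefficient of variation was higher in the PAMH group for 7 of the 8, Insig2 being the exception, and for 77.2% of all tested genes. For Srebf2 it was 1.78% in control and 9.98% in PAMH hearts, and for Insig1 5.17% and 21.3%. Without PAMH replicate 4 it was higher in the PAMH group for 5 of the 8 and for 62.4% of all tested genes. That sample had the highest value of Srebf2, Scap and Fdft1 and the lowest of Insig1 and Hmgcs1.

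The other enzymes of cholesterol synthesis gave no call. Of 18 such genes 9 reached the filter and 0 passed (limma; 1, Hsd17b7, at an unadjusted p under 0.05, against 24.0% of all tested genes). There were 6 positive and 3 negative log2 differences, against 67.3% positive over all tested genes, and the median was 0.02 against 0.07. Hsd17b7, a 3-ketosteroid reductase of the pathway, had the largest difference among them, with 2.195 ± 0.543 and 2.96 ± 0.215 FPKM (SD, n = 5 each; log2 difference 0.32, SE 0.11, limma adjusted p = 0.0895). It passed without control replicate 2, which at 3.06 FPKM was the highest of the controls (the others were at 1.596 to 2.27 FPKM). The mevalonate enzymes Mvk, Pmvk, Mvd and Fdps had log2 differences of 0.0074, 0.07, 0.05 and -0.03. Those of the sterol-modifying enzymes Cyp51, Ebp, Sc5d and Lbr were 0.03, 0.02, -0.02 and -0.08. The signs for Mvk, Mvd, Cyp51, Ebp, Fdps and Sc5d turned under at least 1 other scaling.

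Of the enzymes below the filter, Dhcr7, which reduces 7-dehydrocholesterol to cholesterol, was at 0.614 to 0.736 FPKM in control and 0.874 to 1.74 FPKM in PAMH hearts, and its groups did not overlap. With no filter its log2 difference was 0.32 (limma adjusted p = 0.190). Acat2, Idi1, Lss, Tm7sf2, Msmo1 and Nsdhl overlapped between groups, at means over all samples of 0.128 (Lss) to 0.983 (Nsdhl) FPKM.

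Beyond synthesis, 4 of 54 tested genes of SREBP processing, sterol transport, fatty acid synthesis, efflux and isoprenoid use, the 9 enzymes above included, passed the threshold, 3 higher and 1 lower, near the background of 6.19%. Vldlr, a lipoprotein receptor abundant in heart, was at 21.9 to 26.4 FPKM in control and 14.3 to 19.3 FPKM in PAMH hearts. All PAMH samples were below all controls, and the mean fell from 24.2 ± 1.82 to 16.7 ± 1.87 FPKM (SD, n = 5 each; log2 difference -0.51, SE 0.09, limma adjusted p = 0.00654). Pdss1, a subunit of the synthase that makes the coenzyme Q side chain, rose from 2.14 ± 0.242 to 3.20 ± 0.247 FPKM (SD, n = 5 each; log2 difference 0.42, SE 0.08, limma adjusted p = 0.0102), with all PAMH samples (2.90 to 3.55 FPKM) above all controls (1.71 to 2.28 FPKM). These calls held in every alternative in which the gene was tested, 19 for Vldlr and 18 for Pdss1.

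Scd2, a fatty acid desaturase, rose from 1.74 ± 0.298 to 3.23 ± 1.05 FPKM (SD, n = 5 each; log2 difference 0.59, SE 0.15, limma adjusted p = 0.0366), with overlap between control replicate 4 (2.27 FPKM) and PAMH replicate 3 (2.24 FPKM). The call of Scd2 ended with no filter (limma adjusted p = 0.125), under median ratio scaling (0.0671), under quantile normalization (0.0534) and with the replicate number as a block (0.0712). On leaving out 1 sample it held only without control replicate 4 or PAMH replicate 3 or 4.

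By group, 1 of 11 tested genes of SREBP processing and sterol-regulated degradation was higher and 10 did not pass (median log2 difference 0.05). Mbtps1, a protease that cleaves SREBPs in the Golgi, had a log2 difference of 0.03. Of 8 tested genes of sterol uptake and transport 1 was lower and 7 did not pass (median -0.03). Among 12 tested genes of fatty acid synthesis 1 was higher and 11 did not pass (median 0.14), with Acly at -0.16 and Scd1 at 0.23 (limma adjusted p = 0.228 and 0.0836). Of 7 tested genes of liver X receptor signalling and efflux 0 passed the limma threshold. An unadjusted limma p under 0.05 was reached by 24% of all tested genes. In this group Cyp27a1, a sterol 27-hydroxylase (log2 difference -0.44), and Lpcat3 (0.31) reached it. In fatty acid synthesis Scd2, Scd1, Mid1ip1, Acss2 and Me1 did, and every other group also held such genes. Of 7 tested isoprenoid genes 1 was higher and 6 did not pass.

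**Figure D3:**
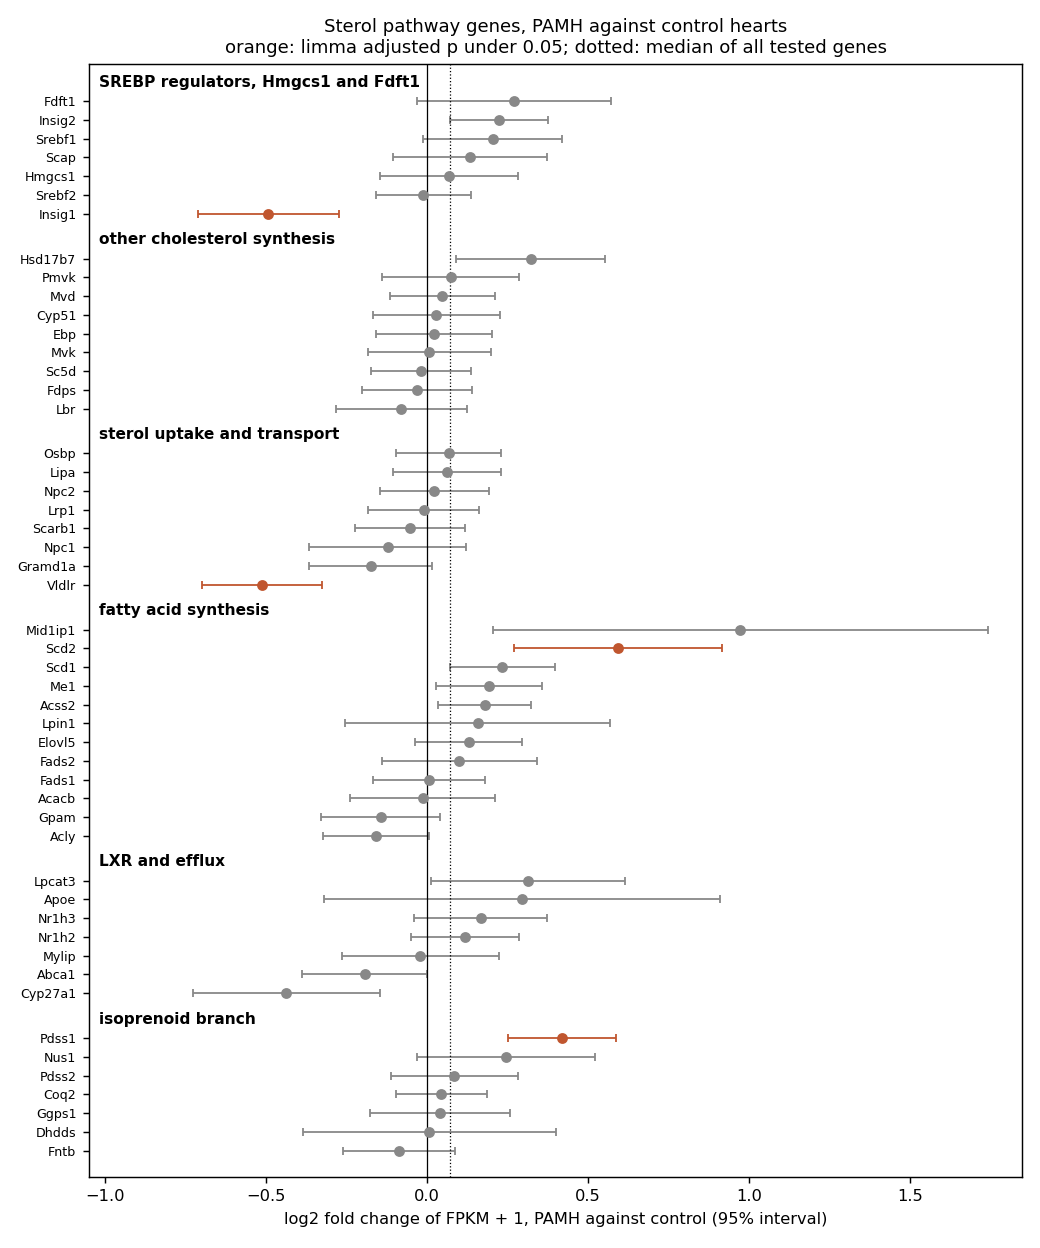
Log2 difference of FPKM + 1 between PAMH and control hearts with its 95% interval from limma for each tested gene of 6 groups (SREBP regulators with Hmgcs1 and Fdft1 at the top; SREBP processing is not drawn). Orange marks limma adjusted p under 0.05 (Insig1, Vldlr, Scd2 and Pdss1), and the dotted line is the median of all tested genes, 0.07.

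The genes whose profile over the 10 samples lay nearest to that of Insig1 were Klhl38, Tbcel and Scx. Nearness was the root mean square difference of z-scored log2 values, 0.227 for Klhl38, 0.285 for Tbcel and 0.300 for Scx. Klhl38 was at 11.7 ± 0.868 and 6.95 ± 1.66 FPKM (SD, n = 5 each), with its lowest value, 4.27 FPKM, in PAMH replicate 4 as for Insig1. Tbcel was at 1.84 ± 0.0718 and 1.28 ± 0.254 FPKM and Scx, a transcription factor of tendon, at 2.48 ± 0.534 and 1.27 ± 0.541 FPKM (SD, n = 5 each). Tbcel and Scx were also lowest in PAMH replicate 4, at 0.837 and 0.470 FPKM. Klhl38, Tbcel and Scx were chosen for their likeness to Insig1 and are described with no test.

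**Figure D4:**
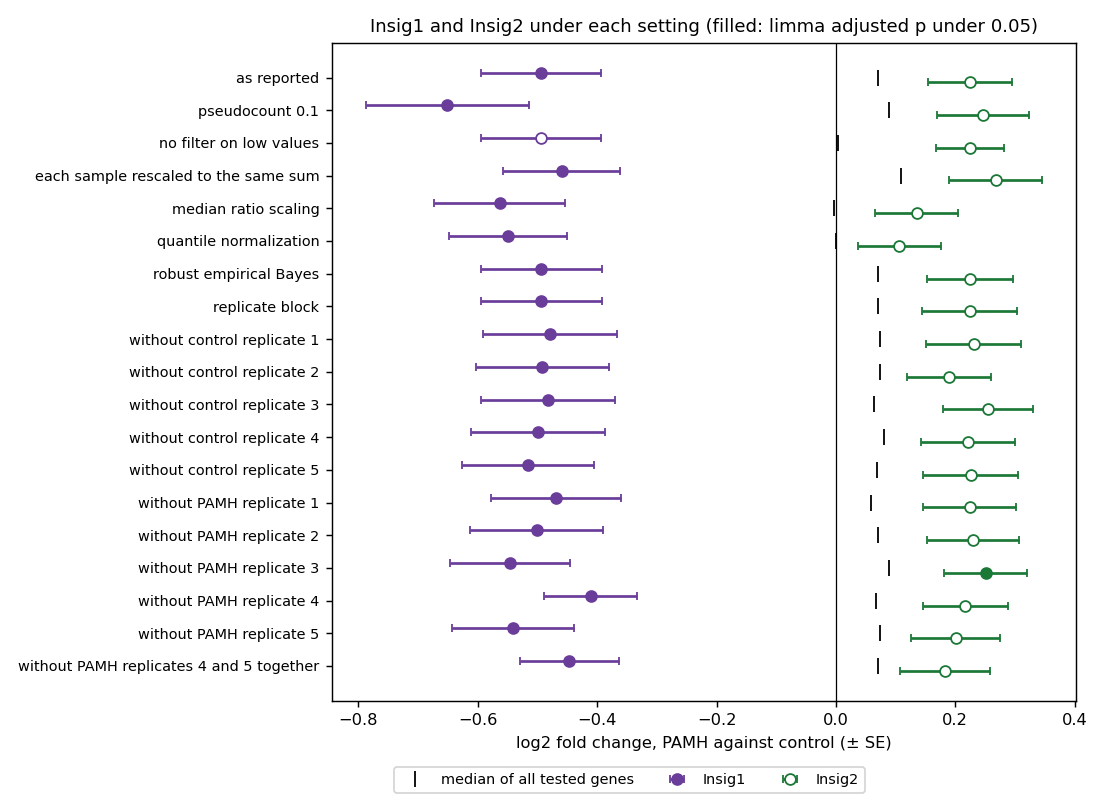
Log2 difference (± SE) of Insig1 (purple) and Insig2 (green) between PAMH and control hearts under each processing setting, with the median of all tested genes as a black tick and filled points for limma adjusted p under 0.05. Insig1 is negative in all settings shown (-0.65 to -0.41) and open only with no filter, and Insig2 is positive in all (0.11 to 0.27) and filled only without PAMH replicate 3.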

How the data were processed

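RNA-seq of 5 control and 5 PAMH heart samples of male mice was used, grouped by sample title; columns were matched through the sample descriptions. The authors deposited FPKM per Ensembl gene. Per the submitters' processing notes the tools included HISAT2 2.2.1 and HTSeq 0.13.5, with build mm10. The step that gave the FPKM, the annotation and the strand setting are not stated there. Read depth is therefore unknown; FPKM sums were 654350 to 717453 per sample. Symbols and coordinates (1-based, GRCm38) came from GENCODE vM21, in which 55154 identifiers were found.

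Genes averaging 1 FPKM or more were tested on log2(FPKM + 1), a scale that understates changes of low genes, with limma 3.58.1 (R 4.3.3; group term, intensity trend, 2-sided, Benjamini-Hochberg adjustment over 9439 genes, threshold 0.05). The code was tested on simulated data. Ratios were tested by exact permutation. Labels do not tie samples to animals or litters, so p-values reflect sample spread only, which may be technical. All 8 genes, pathway genes past the threshold, every enzyme of synthesis and the 3 profiles nearest to each called gene were to be named; further genes named were chosen after their values were seen. Certain pathway genes enter the counts but are not reported here individually. The genes and lists were chosen with earlier results of these data known. Alternatives are listed in the closing section. Figures were drawn with matplotlib 3.10.9.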

Additional observations from a re-analysis of the deposited data

Results flagged for a closer look

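Values far from the rest of their group of 5 were looked for in 64 groups (the described genes, the named pathway genes and both ratios), and 6 were found, where chance alone gives about 1 in 20 groups. The figure for each is the gap to the nearest sample divided by the range of the group. In PAMH replicate 4 these were Scap at 4.78 FPKM, with the rest of its group at 2.86 to 3.30 FPKM (0.770), Ebp at 3.41 against 2.41 to 2.69 FPKM (0.719) and Dhcr7 at 1.74 against 0.874 to 1.03 FPKM (0.815). In control replicate 3 they were Hmgcs1 at 3.19 against 3.82 to 4.08 FPKM (0.712) and Pdss1 at 1.71 against 2.23 to 2.28 FPKM (0.917). Scd2 was high in control replicate 4, at 2.27 against 1.56 to 1.68 FPKM (0.832). PAMH replicate 4 also had the fewest genes above 0, and its part in these values was not tested.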

How the results depend on the processing

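Results were recomputed with pseudocount 0.1, without a filter, with the filter at 5 FPKM, with 3 other scalings (equal sums, median ratio, quantile), with robust variance shrinkage, with a replicate block, without each sample, and without PAMH replicates 4 and 5. Over all genes 264 passed without a filter, 239 with the replicate block and 357 without PAMH replicates 4 and 5, against 584. Leaving out 1 sample gave 274 (control replicate 3) to 1126 (PAMH replicate 3), and moved the count by over 1.5 times for every sample except control replicate 2 and PAMH replicates 2 and 4. Of the 8 genes 0 passed without a filter or with the filter at 5 FPKM, which leaves Insig1 untested, and 1 to 2 on leaving out 1 sample, Insig2 being the second without PAMH replicate 3. Of the other pathway genes, 4 in the report, 2 passed without a filter, under median ratio scaling, quantile scaling, the replicate block or without PAMH replicates 4 and 5. With the filter at 5 FPKM 1 passed, and on leaving out 1 sample 2 to 6. Deviations of same-numbered samples had correlations of -0.195 to 0.160, and 3 of 10 samples were nearest to their own number. The samples numbered 1 were nearest to each other. With 1 sample per group and number these values cannot decide whether the numbers pair samples. Insig1 passed with the block too (limma adjusted p = 0.0498).

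The log2 ratio difference for Srebf1 to Srebf2 lost its call with pseudocount 0.1 (0.305), with none (0.32, added after seeing the data) and without PAMH replicates 4 and 5 (0.211), and was 0.176 to 0.284 on leaving out 1 sample. That for Insig1 to Insig2 was -0.92 to -0.63 over its alternatives and passed in each. Signs of small log2 differences turned. With equal sums Srebf2 was at 0.0233, Fdps at 0.00172 and Sc5d at 0.0145. Under median ratio scaling Hmgcs1 was at -0.00889, Mvk at -0.0471, Mvd at -0.0107, Cyp51 at -0.0388 and Ebp at -0.0498. Under quantile scaling Hmgcs1 was at -0.0106, Mvk at -0.00655, Cyp51 at -0.0208 and Ebp at -0.0450. Without PAMH replicates 4 and 5 Srebf2 was at 0.00278, Scap at -0.00423, Mvk at -0.0511 and Ebp at -0.0455. On leaving out 1 sample Srebf2 ranged from -0.0383 to 0.0268, Mvk from -0.0489 to 0.0519, Fdps from -0.0674 to 0.00861, Cyp51 from -0.0383 to 0.0682, Ebp from -0.0359 to 0.0569 and Sc5d from -0.0463 to 0.0198. The cause was not tested. Since read depth is unknown, no detection limit can be given for Sqle.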
